A study of Homo sapiens with 24 samples.

Results

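The 43 genes described here make up the hypoxia response and glycolysis genes of 2 human kidney cell lines, out of 60675 genes counted. They were chosen by symbol: the hypoxia-inducible factor (HIF) subunits and their regulators, well known HIF target genes, the transporters and enzymes of glucose breakdown, and enzymes that modify collagen. All 43 were found, each with 1 gene identifier; the rule names symbols, not values. RNA-seq was analysed in 24 libraries, 3 for each of 8 groups, from ACHN, a renal cancer line that the labels call ccRCC (clear cell renal cell carcinoma), and HK-2, a line labelled as human kidney (the labels write it HK2, which below is only the name of the hexokinase 2 gene). All groups carried lentiviral short hairpins in cells kept in DMEM with fetal bovine serum, and no label names a low-oxygen treatment. The groups of each line were shNC, the non-targeting control; shKDM5C, against the histone demethylase KDM5C; shYY1, against the transcription factor YY1; and Dsh, in which YY1-depleted cells also received the KDM5C hairpin. The Dsh cells were selected for a fluorescent protein as well as for puromycin, so a second infection and sorting stand with the second hairpin and cannot be told apart from it. The study built 2 hairpin constructs for each target, and the labels do not say which was sequenced. Nothing says whether the 3 libraries of a group came from separate cultures, so every p-value measures the spread between these libraries only.

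HIF is a transcription factor made of an oxygen-sensitive alpha subunit (HIF1A, or EPAS1, also called HIF-2alpha) and a stable partner. When oxygen is present, prolyl hydroxylases such as EGLN1 and EGLN3 mark the alpha subunit, and the VHL ubiquitin ligase removes it. When oxygen is low, or VHL is lost as in most clear cell kidney cancers, HIF binds short DNA elements with the core letters RCGTG and turns on genes for blood vessel growth, pH control, glucose uptake and anaerobic glycolysis. Because the alpha subunits are controlled mainly as proteins, RNA counts show the transcripts of the factors and of their targets, not HIF activity itself.

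Library depth was 15926561 to 24272298 counts. KDM5C, the targeted gene, had 70.3 ± 0.595 CPM (counts scaled to the library size by the trimmed mean of M values) in the ACHN shNC libraries, 42.8 ± 1.34 CPM in shKDM5C and 40.4 ± 0.635 CPM in Dsh, as means ± SD with n = 3. In HK-2 its level was 192 ± 2.7 CPM in shNC, 56.9 ± 18.2 in shKDM5C and 67.98 ± 3.15 in Dsh. YY1 fell from a mean of 138 CPM in ACHN shNC libraries to 76.4 ± 3.44 in shYY1 and 96.6 ± 7.03 in Dsh, and stood at 209 ± 6.96, 64.1 ± 3.18 and 74.03 ± 1.55 in the same groups of HK-2 cells. Targeted genes were thus lower in every group labelled with their hairpin, and YY1 was less reduced in ACHN Dsh than in ACHN shYY1. In shYY1 the mean of KDM5C was above that of shNC, at 90.2 ± 2.63 CPM in ACHN and 244 ± 14.1 in HK-2. One library stood apart: HK-2 shKDM5C replicate 1 had 11.8% of its counts in mitochondrial genes against 4.75% to 5.52% in the other HK-2 libraries, and a mean correlation of 0.968 with its mates; results that rest on it are given with and without it. Renal epithelial markers summed to 1702 to 3248 CPM over the groups, endothelial markers to at most 1.82 CPM and leukocyte markers to at most 0.525 CPM; proximal tubule markers summed to 89.0 to 359 CPM, with SLC22A6 at 0 in all groups, and the clear cell cancer list, which holds the members CA9, EGLN3 and ANGPTL4, to 136 to 787 CPM with FABP7 at 0 in 7 groups. Fibroblast markers moved with the ACHN groups, from 582 to 634 CPM in shNC to 74.4 to 78.6 in shKDM5C, 189 to 197 in shYY1 and 135 to 152 in Dsh, with LUM at 0 in all 4 and COL1A2 at 0 in the first 3 (29.7 to 102 CPM in HK-2); their part in the results for ACHN was not tested. CA9, 1 gene of the clear cell cancer list, was near absent in ACHN, with 0 to 3 counts per library, although the label is ccRCC. The list as a whole went the other way, at 357 to 372 CPM in ACHN shNC and 143 to 152 in HK-2 shNC. Whether the label holds was not tested.

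Promoter sequence is shown for 5 members, because HIF acts through the ACGTG and GCGTG cores. They were picked from the members with ACGTG before the start, so its presence in them is no result. RefSeq promoter windows of GRCh38.p14 (250 bases before to 50 after the start) were found for 37 of the 43 members. The windows of EPAS1, ADM, STC2 and PDK1 held no ACGTG, and that of PDK1 neither core. VEGFA, NDRG1 and SLC2A3 had no window. Each line gives 60 bases from upstream of the start, read 5′ to 3′ on the strand of the gene, with every ACGTG on either strand in capitals (CACGT is the same core on the opposite strand).
CA9, chr9:35673868-35673927, plus strand: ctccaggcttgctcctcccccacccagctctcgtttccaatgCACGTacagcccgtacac
ANGPTL4, chr19:8363905-8363964, plus strand: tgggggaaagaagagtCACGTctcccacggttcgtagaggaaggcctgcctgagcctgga
LOX, chr5:122078270-122078329, minus strand: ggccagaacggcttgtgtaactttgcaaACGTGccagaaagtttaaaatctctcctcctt
ENO2, chr12:6914434-6914493, plus strand: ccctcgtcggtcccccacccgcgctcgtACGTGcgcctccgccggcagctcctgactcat
LDHA, chr11:18394462-18394521, plus strand: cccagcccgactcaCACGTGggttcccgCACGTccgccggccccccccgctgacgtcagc
The CA9 core lies 18 bases before the start, the ENO2 core 118 bases and the LOX core 42 bases. ACGTG occurred on either strand in 17 of the 37 windows (45.9%), against 21.6% of all 27305 windows, and GCGTG in 19 (51.4% against 36.3%); 29 windows (78.4%) held at least 1 of the cores, against 48.4%, and these matches may overlap each other. The YY1 motif letters CCATNTT were in 2 of the 37, GAPDH and SLC16A3 (5.41% against 15.9%). These letters are a description of the windows and no evidence of binding, and the members were chosen as known HIF targets.

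In the control libraries the glycolytic enzymes dominated the 43 genes in both lines. Compared per exon length, GAPDH was highest at 958 FPKM in ACHN and 938 in HK-2, followed by ENO1 (656 and 813 FPKM). PKM, PGAM1, TPI1, LDHA and ALDOA all lay between 180.5 and 365 FPKM. HIF1A stood at 88.1 FPKM in ACHN and EPAS1 at 82.9, so neither subunit was clearly above the other, whereas in HK-2 HIF1A was at 144 and EPAS1 at 52.5. Several targets separated the lines. SLC16A3, which exports lactate, had 4.47, 5.59 and 5.54 CPM in ACHN and 330.5, 301 and 317 CPM in HK-2 shNC libraries. STC1, a secreted glycoprotein hormone, had counts of 328, 294 and 302 in ACHN and of 2, 1 and 1 in HK-2. ANGPTL4, a secreted inhibitor of lipoprotein lipase, had 5.25, 5.69 and 4.84 CPM in ACHN and 0.386, 0.111 and 0.361 CPM in HK-2. ACHN was higher than HK-2 for 10 of the 43 members (38.6% of all genes tested were higher) and lower for 26 (38% of all genes), by edgeR's quasi-likelihood test at a Benjamini-Hochberg adjusted p under 0.05 over all genes tested, the threshold used throughout and meant below by passed the test. The median member was -0.30 on the log2 scale, below that of all genes at 0.02.

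KDM5C depletion in ACHN lowered EPAS1, NDRG1, VEGFA and STC1 and raised ANGPTL4 and most of the highly expressed glycolytic enzymes. Of 42 members tested, 17 were higher and 13 lower than shNC; 28.9% and 27.7% of all 16184 genes tested were called in these directions. With library totals as the scaling in place of the trimmed mean, the split was 13 higher and 17 lower, so the balance of small changes depended on the scaling. A log2 change of 1.5 or more in size was reached by 2 members, ANGPTL4 upward and STC1 downward, against 3.34% of all genes. The median over the members was -0.03.

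YY1 depletion in ACHN lowered more members than it raised: 22 fell and 8 rose of 42 tested, where 24.5% and 24.2% of all genes tested did. STC2 fell most and ANGPTL4, SLC16A3, ALDOC and PFKFB3 rose most, and only STC2 passed 1.5 on the log2 scale, a size reached by 3.13% of all genes. The median member was -0.11. In HK-2 the same knockdown gave the opposite balance: 27 of 42 members rose and 2 fell, against 14.3% and 14.7% of all genes. The 2 that fell were SLC2A3 and P4HA2, ANGPTL4 and CA9 were the 2 above 1.5 (1.29% of all genes), and the median member was 0.26. A fit of all 4 HK-2 groups called 9 members for this knockdown, 8 higher and 1 lower. It called 29 once shKDM5C replicate 1 was left out of it. With all 4 groups complete, the rises of ANGPTL4, BNIP3, PDK1, LOX, NDRG1, TPI1 and PGAM1 kept the call. Few of the other HK-2 shYY1 rises given below did so.

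Double knockdown in ACHN lowered 25 members and raised 10 of 42 tested, against 32% and 30.7% of all genes, with a median of -0.32. Past 1.5 on the log2 scale were 6 members: ANGPTL4 and SLC2A3 upward, NDRG1, ADM, STC2 and EPAS1 downward (8.42% of all genes passed this size). In HK-2 the double knockdown raised 23 and lowered 8 of 42, against 25.5% and 24.3% of all genes, with a median of 0.16. All 5 members past 1.5 there were higher, ANGPTL4, CA9, CA12, SLC2A3 and ADM (4.3% of all genes passed this size). The fit of all 4 HK-2 groups called 18 members here, and 33 without shKDM5C replicate 1. The comparisons of a line share its 3 shNC libraries. Each member's change in the 6 comparisons is drawn in the map of fold changes.

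**Figure D1:**
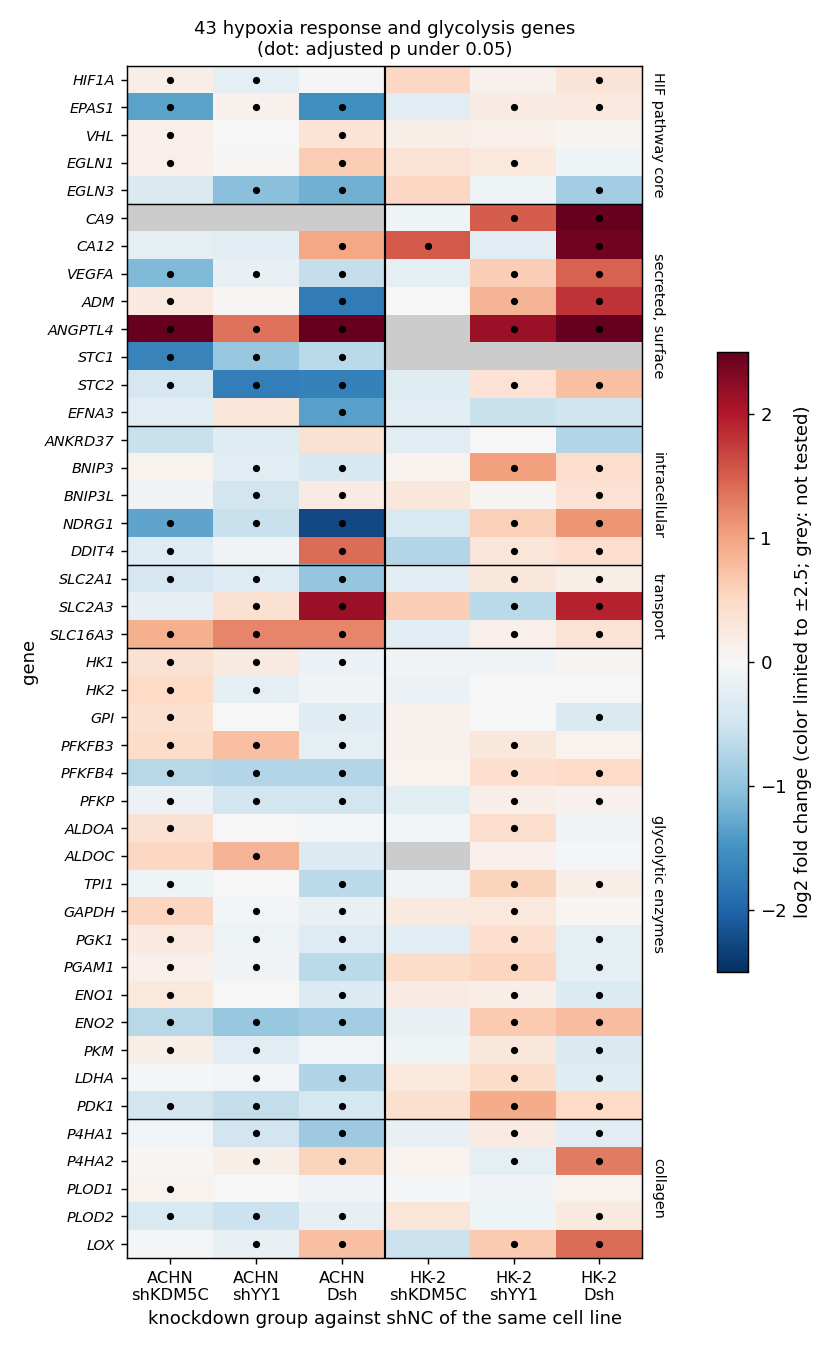
Log2 fold change of the 43 genes (rows, grouped by role) in each knockdown group against shNC of the same line (columns), with a dot where the adjusted p is under 0.05 and grey where counts were too low to test. The ACHN Dsh column holds 25 lower and 10 higher members, the HK-2 Dsh column 8 lower and 23 higher, and the HK-2 shKDM5C column 1 dot, at CA12.

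Among the HIF subunits and their regulators, EPAS1 carried the largest difference between the lines in Dsh. In ACHN its level was 596, 600.5 and 620.2 CPM in the 3 shNC libraries and 240.1, 251 and 238 in shKDM5C. With shYY1 it was 672, 672 and 657 CPM and in Dsh 209.6, 204 and 212. Both groups with the KDM5C hairpin lay far below the control, with no overlap (log2 fold change -1.33 ± 0.03 SE, adjusted p = 7.9e-22 in shKDM5C and -1.54 ± 0.04, adjusted p = 7.57e-16 in Dsh). YY1 depletion alone raised it slightly (0.12 ± 0.03, adjusted p = 0.000325). In HK-2 EPAS1 was 389.8, 392 and 368 CPM in shNC and 345, 302 and 303 in shKDM5C. In shYY1 it was 455, 435 and 435 CPM and in Dsh 451, 440.0 and 459. There it rose by 0.24 in Dsh (adjusted p = 1.06e-05) and was -0.26 ± 0.12 in shKDM5C (adjusted p = 0.352). Without replicate 1 of HK-2 shKDM5C that difference passed the test at -0.35 ± 0.04 (adjusted p = 5.81e-07). With all 4 HK-2 groups in the fit the Dsh call was lost (adjusted p = 0.0634). The Dsh effect on EPAS1 was lower in ACHN than in HK-2 by a log2 difference of -1.76 ± 0.06 (adjusted p = 7.38e-20).

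HIF1A moved less. Its mean ± SD in ACHN was 454 ± 18.8 CPM in shNC, 508 ± 9.55 in shKDM5C, 387 ± 3.29 in shYY1 and 439 ± 28.8 in Dsh. The log2 fold changes were 0.15, -0.25 and -0.05, of which the first 2 passed the test and the last did not (adjusted p = 0.451). In HK-2 it rose in Dsh from 743 ± 39.7 to 921 ± 9.79 CPM (0.32 ± 0.04, adjusted p = 5.77e-08), and in shYY1 it was 0.12 (adjusted p = 0.0655). The Dsh call was lost with all 4 HK-2 groups in the fit (0.31, adjusted p = 0.331). HK-2 shKDM5C replicate 1 alone had 1544 CPM of HIF1A, beside 763 and 824 in its mates. EGLN1, the main oxygen-sensing hydroxylase, rose in ACHN Dsh from 141 ± 3.26 to 219.8 ± 12.9 CPM (0.64 ± 0.05, adjusted p = 1.43e-09). It also rose in HK-2 shYY1, from 127 ± 2.5 to 153 ± 2.73 CPM (0.27 ± 0.05, adjusted p = 0.000265), and had a change of -0.11 in HK-2 Dsh (adjusted p = 0.0608). With all 4 HK-2 groups in the fit the shYY1 rise of EGLN1 lost its call (adjusted p = 0.0763). VHL rose in ACHN Dsh from 54.5 ± 0.626 to 68.9 ± 3.7 CPM (0.34 ± 0.06, adjusted p = 3.25e-05) and had a change of 0.07 in HK-2 Dsh (adjusted p = 0.419). Smaller rises of VHL (0.13) and EGLN1 (0.12) in ACHN shKDM5C were lost when 1 of several libraries was left out. VHL was at 0.10 without shKDM5C replicate 3 (adjusted p = 0.11), and EGLN1 at 0.09 without shKDM5C replicate 1 (adjusted p = 0.0949). Library totals as the scaling also lost both calls (adjusted p = 0.13 for VHL and 0.113 for EGLN1). DESeq2, the tool the authors used, lost that of VHL (adjusted p = 0.0614). EGLN3, a hydroxylase that is itself a HIF target, was low throughout, at 1.72, 0.913 and 1.56 CPM in ACHN shNC and 0.615, 0.827 and 0.406 CPM in ACHN Dsh. In HK-2 shNC it was at 8.76, 9.33 and 8.1 CPM and in Dsh at 6.12, 3.97 and 4.14, a fall (-0.87 ± 0.18, adjusted p = 0.000134). Its falls in ACHN shYY1 (-1.05) and Dsh (-1.21) lost the call without shNC replicate 1 (adjusted p = 0.085 and 0.0614), and a pseudogene of EGLN3 held up to 41.2% of their summed counts in a library.

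Among the secreted and cell surface targets, some moved in opposite directions in the lines in Dsh, some rose in both and others did neither. VEGFA, the main growth factor for blood vessels, was 119, 117 and 118 CPM in ACHN shNC and 54.4, 57.8 and 55.1 in shKDM5C. Its shYY1 libraries had 103, 112 and 101 CPM and those of Dsh 77.6, 73.4 and 80.7, so that all 9 knockdown libraries lay below the controls. The largest fall was with the KDM5C hairpin alone (-1.09 ± 0.04, adjusted p = 2.53e-17), and the Dsh level was above the shKDM5C level (Dsh -0.61 ± 0.05, adjusted p = 3.9e-09). In HK-2 VEGFA was 80.97, 75.7 and 89.7 CPM in shNC, 126, 118 and 134 in shYY1 and 233, 209 and 236 in Dsh. It rose in both (0.62 ± 0.06, adjusted p = 1.61e-07 and 1.47 ± 0.06, adjusted p = 1.7e-19). The shYY1 call was lost with all 4 HK-2 groups in the fit (adjusted p = 0.145). Its 3 HK-2 shKDM5C libraries had 37.7, 86.2 and 84.9 CPM, of which replicate 1 lay below the shNC range and the others within it.

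ADM, the vasodilator peptide adrenomedullin, had the widest gap between the lines among members well above 0. In ACHN it was 10.6, 11.5 and 12.1 CPM in shNC, 14.8, 13.3 and 12.9 in shKDM5C, 13.1, 11.97 and 10.52 in shYY1 and 4.1, 2.81 and 3.21 in Dsh. It fell only with both hairpins (-1.75 ± 0.15, adjusted p = 5.66e-09), rose slightly in shKDM5C (0.25 ± 0.10, adjusted p = 0.0318) and was 0.04 in shYY1 (adjusted p = 0.778). In HK-2 it was 4.46, 3.05 and 4.18 CPM in shNC, 7.6, 6.71 and 6.81 in shYY1 and 12.6, 13.1 and 14.9 in Dsh. It rose in each (0.85 ± 0.18, adjusted p = 0.00123 and 1.80 ± 0.16, adjusted p = 6.59e-11). The shYY1 call was lost in the fit of all 4 HK-2 groups (adjusted p = 0.131). The Dsh effect differed between the lines by -3.53 ± 0.22 on the log2 scale (adjusted p = 1.6e-13). STC2, a secreted glycoprotein that limits IGF release, fell to a like level in the 2 ACHN groups with the YY1 hairpin, from 89.9, 94.2 and 97.8 CPM to 30.1, 29.4 and 26.6 in shYY1 and 29.7, 26.4 and 31.1 in Dsh (-1.73 ± 0.05, adjusted p = 2.62e-24 and -1.68 ± 0.06, adjusted p = 7.75e-14). A smaller fall was seen in shKDM5C, to 70.9 ± 2.02 CPM (-0.42). In HK-2 STC2 rose from 66.3, 72.2 and 79.5 CPM to 93.9, 87.5 and 97.7 in shYY1 (0.36 ± 0.07, adjusted p = 0.000295) and 123, 110.0 and 132 in Dsh (0.75 ± 0.06, adjusted p = 2.73e-11). STC1 fell in ACHN from 16.4 ± 0.64 CPM to 5.16 ± 0.344 in shKDM5C, 8.65 ± 0.411 in shYY1 and 10.2 ± 0.481 in Dsh (log2 fold changes -1.68, -0.94 and -0.67). In HK-2 its counts were 0 to 16 per library, too low for a test against shNC.

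ANGPTL4 rose wherever it could be tested. In ACHN it was 5.25, 5.69 and 4.84 CPM in shNC, 13.3, 12.02 and 16.1 in shYY1, 34.4, 32.6 and 27.8 in shKDM5C and 274, 262 and 272 in Dsh. No 2 of these groups overlapped. The fold changes were 2.58 in shYY1, 5.94 in shKDM5C and 51.2 in Dsh (log2 5.68 ± 0.07, adjusted p = 1.12e-20). The Dsh change was larger than both single changes together, by a log2 difference of 1.72 ± 0.14 (adjusted p = 1.43e-10). In HK-2 it was a rare transcript, with counts of 7, 2 and 7 in shNC, 18, 23 and 26 in shYY1 and 66, 47 and 83 in Dsh. It rose in both (log2 fold changes 2.16 ± 0.51, adjusted p = 0.00255 and 3.69 ± 0.41, adjusted p = 6e-09). The carbonic anhydrases, which control pH at the cell surface, rose in HK-2 Dsh. CA9 was 0.717, 0.777 and 0.825 CPM in shNC, 0, 0.889 and 1.2 in shKDM5C, 1.72, 3.21 and 1.73 in shYY1 and 8.94, 6.77 and 10.2 in Dsh (Dsh 3.48 ± 0.25, adjusted p = 4.33e-13). CA12 was 6.03 ± 1.41, 17.3 ± 1.78, 4.97 ± 0.846 and 32.2 ± 2.47 CPM in the same groups (Dsh 2.42 ± 0.13, adjusted p = 2.99e-16). CA9 also rose in HK-2 shYY1 (1.51 ± 0.38, adjusted p = 0.00456), a call lost without shYY1 replicate 2 (1.15, adjusted p = 0.056) or with all 4 HK-2 groups in the fit (adjusted p = 0.153). In ACHN Dsh CA9 had 0 counts in all 3 libraries, which allows a level of up to about 3 counts over the 3 libraries together. CA12 rose there from 2.35 ± 0.578 to 4.58 ± 0.35 CPM (0.96 ± 0.20, adjusted p = 0.000378). EFNA3, a membrane-bound ephrin, fell in ACHN Dsh from 2.18 ± 0.576 to 0.865 ± 0.353 CPM (-1.36 ± 0.33, adjusted p = 0.00144) and was -0.49 in HK-2 Dsh (adjusted p = 0.319). CA9 shares 38.5% of its exon bases with ARHGEF39 and EFNA3 44.7% with the read-through gene EFNA4-EFNA3, and reads there cannot be told apart in these counts.

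**Figure D2:**
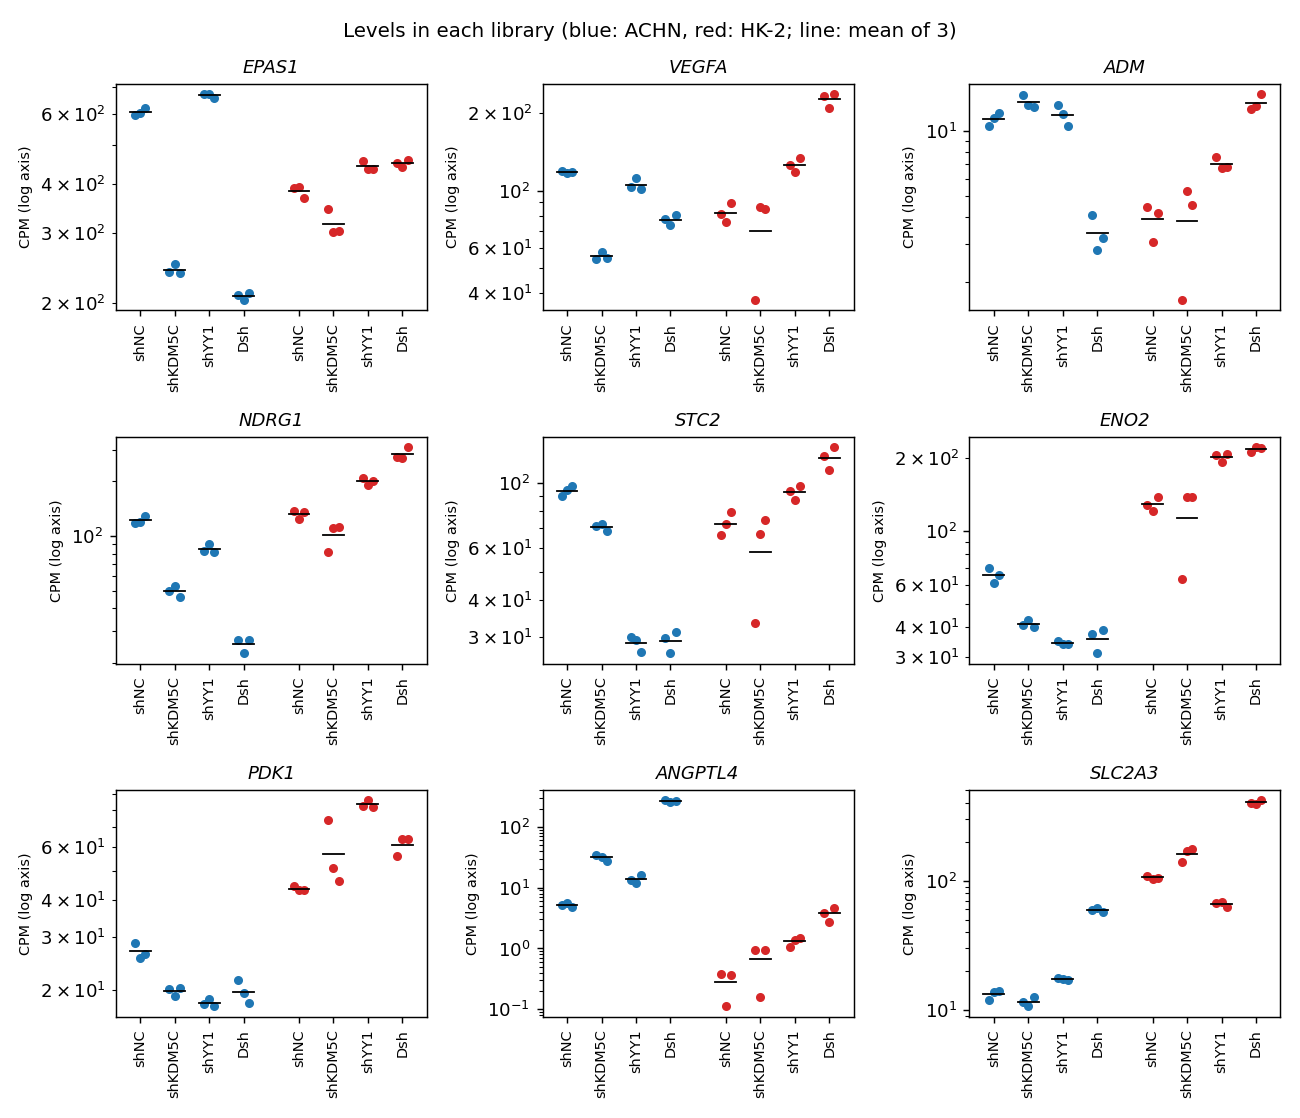
Level of 9 members in every library (CPM, log axis; blue ACHN, red HK-2; 3 points per group, line at the mean). EPAS1, VEGFA, ADM, NDRG1, STC2, ENO2 and PDK1 have their Dsh points below shNC in ACHN and above shNC in HK-2, while ANGPTL4 and SLC2A3 have them above shNC in both lines.

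Of the intracellular targets, NDRG1, a stress-responsive differentiation gene, showed the strongest contrast. In ACHN it was 118, 119 and 129 CPM in shNC and 50.01, 52.7 and 46.05 in shKDM5C. YY1-depleted cells had 82.7, 89.99 and 81.3 CPM and Dsh cells 26.6, 22.5 and 26.8. NDRG1 fell in all 3 (-1.31 ± 0.05, adjusted p = 1.47e-17, -0.55 ± 0.04, adjusted p = 3.81e-13 and -2.26 ± 0.07, adjusted p = 1.47e-15), with no overlap between any of the groups. In HK-2 it was 138, 124 and 136 CPM in shNC, 208, 191 and 202 in shYY1 and 271, 268 and 309.7 in Dsh. It rose in both (0.59 ± 0.05, adjusted p = 2.67e-08 and 1.10 ± 0.05, adjusted p = 3.17e-17). The difference between the lines in the Dsh effect was -3.35 ± 0.09 (adjusted p = 7.49e-22). BNIP3, a mitophagy receptor, rose in HK-2 shYY1 from 112 ± 2.26 to 226 ± 16.2 CPM (fold 2.02, 1.02 ± 0.06, adjusted p = 9.17e-12), and fell in ACHN shYY1 (-0.29) and Dsh (-0.40). Its relative BNIP3L fell in ACHN shYY1 (-0.46) and rose in ACHN Dsh (0.21) and HK-2 Dsh (0.35). DDIT4, an inhibitor of mTORC1, was 58.4, 63.98 and 55.95 CPM in ACHN shNC and 163, 153 and 152 in Dsh (1.39 ± 0.06, adjusted p = 1.23e-13), whereas shKDM5C lowered it (-0.33). In HK-2 it rose in shYY1 (0.30) and Dsh (0.43). ANKRD37, at 1.28 to 2.52 CPM, passed no test against shNC. DDIT4 shares 41.2% and ANKRD37 35.2% of exon bases with an overlapping gene.

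SLC2A1 and SLC2A3, both glucose transporters, changed in opposite directions in ACHN Dsh. SLC2A1, which encodes GLUT1, the broad basal transporter, was 419.9, 394 and 404 CPM in shNC, 306, 306 and 302 in shKDM5C, 330.2, 327 and 335 in shYY1 and 199.9, 208 and 214 in Dsh. It fell in each (-0.43 ± 0.03, adjusted p = 9.85e-12, -0.32 ± 0.03, adjusted p = 2.27e-11 and -0.97 ± 0.05, adjusted p = 1.43e-12). SLC2A3, which encodes the high-affinity GLUT3, was 12.01, 13.7 and 13.9 CPM in shNC and 59.1, 61.2 and 57.1 in Dsh, a 4.48-fold rise (2.16 ± 0.07, adjusted p = 1.83e-14). It had a change of -0.20 in shKDM5C (adjusted p = 0.0827) and a rise of 0.38 in shYY1. Its HK-2 levels were higher at the start and also rose in Dsh, from 109, 104 and 105 to 401, 388 and 418 CPM (3.81-fold, 1.93 ± 0.05, adjusted p = 1.25e-24). In shYY1 it fell to 67.4, 68.7 and 62.5 CPM (-0.68 ± 0.06, adjusted p = 1.13e-08). The double knockdown exceeded the sum of the single knockdowns for SLC2A3 by 1.96 ± 0.11 in ACHN (adjusted p = 1.1e-13) and by 2.00 ± 0.13 in HK-2 (adjusted p = 7.28e-06). Without HK-2 shKDM5C replicate 1 the HK-2 value was 1.93 ± 0.07 (adjusted p = 2.72e-17). In HK-2 SLC2A1 rose by 0.28 in shYY1 and 0.16 in Dsh. Both calls were lost with all 4 HK-2 groups in the fit (adjusted p = 0.345 and 0.511). The second was also lost without shNC replicate 2 (0.13, adjusted p = 0.0668) or Dsh replicate 1 (0.13, adjusted p = 0.0587). SLC16A3, the lactate exporter MCT4, rose in ACHN from 5.2 ± 0.63 CPM to 9.77 ± 0.414 in shKDM5C, 12.3 ± 1.18 in shYY1 and 12.1 ± 2.12 in Dsh (0.90 ± 0.12, adjusted p = 1.02e-06, 1.22 ± 0.12, adjusted p = 1.72e-10 and 1.23 ± 0.14, adjusted p = 5.86e-07). These levels were far below that of HK-2 shNC, 316 ± 14.5 CPM.

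The 17 enzymes of glycolysis and its control moved mostly in 1 direction in 2 of the comparisons. In ACHN Dsh 13 fell and 0 rose of 17 tested, with a median of -0.35. In HK-2 shYY1 13 rose and 0 fell, with a median of 0.29. With all 4 HK-2 groups in the fit, 8 members of any role were called higher in shYY1. Most of these 13 rises thus lost the call there. ACHN shKDM5C raised 10 and lowered 5 (median 0.24), ACHN shYY1 raised 3 and lowered 10 (median -0.07), and HK-2 Dsh raised 5 and lowered 6 (median 0.02). The background shares for each comparison are those given above with the member counts, and medians over all genes tested lay between -0.01 and 0.01. All 17 changed by less than 1 on the log2 scale in these comparisons.

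Of the hexokinases, which trap glucose in the cell, HK1 rose in ACHN shKDM5C (0.38) and shYY1 (0.22) and fell in Dsh (-0.15). HK2 rose in shKDM5C from 27.3 ± 1.57 to 38.96 ± 2.56 CPM (0.50 ± 0.06, adjusted p = 3.34e-07), fell in shYY1 (-0.22) and was -0.09 in Dsh (adjusted p = 0.35). In HK-2 cells neither passed the test in any group with all libraries in the fit, with HK2 at 39.6 ± 1.52 CPM in shNC, 39.4 ± 0.826 in shYY1 and 39.8 ± 1.999 in Dsh. The regulators PFKFB3 and PFKFB4, which set the level of the activator fructose 2,6-bisphosphate, parted in ACHN shYY1: PFKFB3 rose from 139 ± 6.41 to 239 ± 5.14 CPM (0.76 ± 0.03, adjusted p = 3.2e-19) while PFKFB4 fell from 14.7 ± 1.47 to 8.93 ± 0.837 CPM (-0.74 ± 0.10, adjusted p = 2.05e-07). PFKFB4 also fell in ACHN shKDM5C (-0.70) and Dsh (-0.73), and rose in HK-2 shYY1 (0.42) and Dsh (0.47).

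Lower glycolysis held the most abundant members. GAPDH rose in ACHN shKDM5C from 2854 ± 64.5 to 4180.4 ± 108 CPM (0.54 ± 0.02, adjusted p = 1.83e-15) and fell slightly in Dsh (-0.19). TPI1, the triose phosphate isomerase, and PGAM1, the phosphoglycerate mutase, fell in ACHN Dsh (-0.66 and -0.68) and rose in HK-2 shYY1 (0.55 and 0.54). In HK-2 Dsh TPI1 rose (0.16) and PGAM1 fell (-0.22). PGK1, ENO1, PKM and ALDOA rose in HK-2 shYY1 by 0.41, 0.17, 0.28 and 0.45, and in HK-2 Dsh the first 3 fell (-0.24, -0.34 and -0.37) while ALDOA was -0.08 (adjusted p = 0.0645). ENO2, the enolase isoform best known from neurons and hypoxic cells, was lower in every ACHN knockdown group and higher in HK-2 with shYY1 and Dsh. In ACHN it was 70.1, 61.03 and 65.9 CPM in shNC, 40.7, 42.8 and 40.1 in shKDM5C, 34.9, 34.2 and 34.1 in shYY1 and 37.5, 31.2 and 38.9 in Dsh. Every knockdown library was below every control (-0.69 ± 0.05, adjusted p = 5.57e-11, -0.96 ± 0.05, adjusted p = 1.83e-16 and -0.87 ± 0.08, adjusted p = 1.16e-08). In HK-2 it was 128, 121 and 138 CPM in shNC, 206, 193 and 207 in shYY1 and 212, 222 and 219.5 in Dsh (0.65 ± 0.05, adjusted p = 8.14e-09 and 0.77 ± 0.05, adjusted p = 3.98e-14). The HK-2 shYY1 call of ENO2 was lost with all 4 groups in the fit (adjusted p = 0.102).

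At the fate of pyruvate, LDHA, which makes lactate, was 1144, 1130.3 and 1203 CPM in ACHN shNC and 732, 674 and 656 in Dsh (-0.75 ± 0.05, adjusted p = 7.25e-11), and -0.02 in shKDM5C (adjusted p = 0.485). In HK-2 it was 1357, 1377 and 1372 CPM in shNC, rose to 1883, 1830.3 and 1900.5 in shYY1 (0.45 ± 0.04, adjusted p = 5.97e-09) and fell to 1054, 1057 and 1179 in Dsh (-0.31 ± 0.04, adjusted p = 7.19e-08). Both LDHA calls in HK-2 were lost with all 4 groups in the fit (adjusted p = 0.113 and 0.153). PDK1, a kinase that inhibits pyruvate dehydrogenase, was 28.8, 25.7 and 26.4 CPM in ACHN shNC, 20.2, 19.1 and 20.3 in shKDM5C, 18.03, 18.7 and 17.6 in shYY1 and 21.7, 19.5 and 18.1 in Dsh. No knockdown library lay in the control range (-0.46 ± 0.07, adjusted p = 5.77e-06, -0.60 ± 0.07, adjusted p = 6.53e-09 and -0.45 ± 0.09, adjusted p = 0.000154). In HK-2 PDK1 was 44.6, 43.3 and 43.1 CPM in shNC, 82.4, 85.98 and 81.95 in shYY1 and 55.9, 64.01 and 63.7 in Dsh. All 6 of these libraries were above the control (0.93 ± 0.06, adjusted p = 1.46e-10 and 0.50 ± 0.07, adjusted p = 3.16e-07). A fall of LDHA in ACHN shYY1 (-0.07) was lost without any 1 of 3 libraries (shNC replicate 3, shYY1 replicate 2 or 3; adjusted p of 0.212, 0.171 and 0.0889). The rise of the rare ALDOC there (0.84) was lost without shNC replicate 2 (0.59, adjusted p = 0.18), shYY1 replicate 1 (0.66, adjusted p = 0.159) or shYY1 replicate 2 (0.86, adjusted p = 0.058). The ACHN shYY1 calls of LDHA and ALDOC were also lost with DESeq2 (adjusted p = 0.0772 and 0.0878). So were they with all 4 ACHN groups in the fit (adjusted p = 0.335 and 0.0562).

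**Figure D3:**
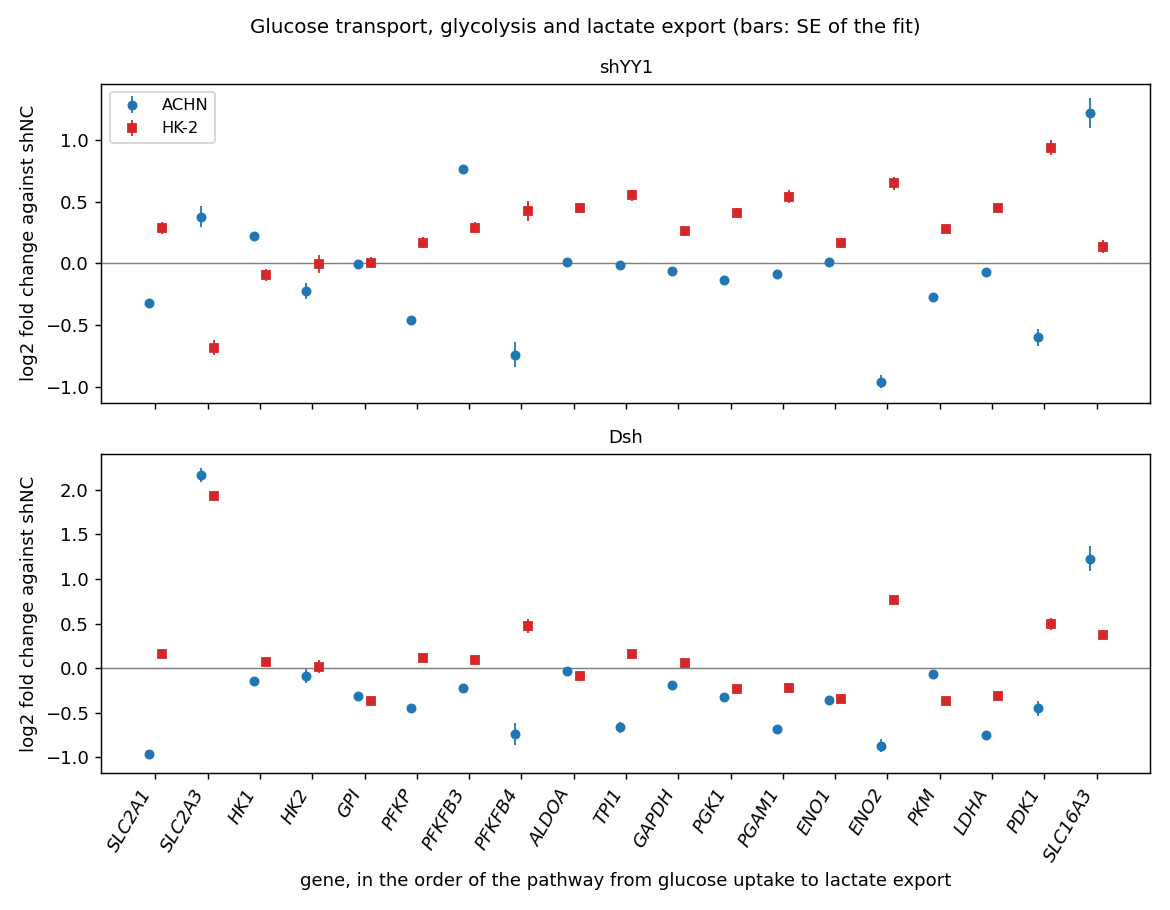
Log2 fold change against shNC (y axis, bars SE of the fit) of transporters and enzymes in pathway order (x axis) for shYY1 (top) and Dsh (bottom), with ACHN in blue and HK-2 in red. With shYY1 most HK-2 points lie above 0 (LDHA 0.45) and most ACHN points near or below it (LDHA -0.07); with Dsh SLC2A3 is above 0 in both lines.

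Collagen-modifying enzymes, several of which are HIF targets, included LOX and P4HA2, which rose in both double knockdowns, and P4HA1, which fell in both. LOX, the lysyl oxidase that cross-links collagen, was 112, 110.3 and 117 CPM in ACHN shNC and 187, 199 and 182 in Dsh (0.75 ± 0.05, adjusted p = 1.62e-10), and 50.5, 45.9 and 40.1 CPM in HK-2 shNC and 110.1, 117 and 128 in Dsh (1.39 ± 0.07, adjusted p = 7.2e-17). With shYY1 alone it fell in ACHN (-0.19) and rose in HK-2 (0.65). P4HA2, a collagen prolyl hydroxylase, rose in Dsh in both lines (0.56 in ACHN, 1.30 in HK-2, where it went from 36.98 ± 2.16 to 90.2 ± 5.82 CPM). Its paralog P4HA1 fell in both (-0.92 and -0.29). The lysyl hydroxylase PLOD2 fell in the 3 ACHN groups (-0.39, -0.54 and -0.20) and rose in HK-2 Dsh (0.24). PLOD1 was called, with all libraries in the fit, only in ACHN shKDM5C (0.09).

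KDM5C depletion in HK-2 gave 1 called member of 40 tested: CA12 rose from 5.46, 4.996 and 7.63 CPM in shNC to 17.6, 15.4 and 18.9 in shKDM5C (1.54 ± 0.21, adjusted p = 0.0215). Over all genes 0.668% were higher and 0.656% lower, and 0.501% passed 1.5 on the log2 scale. The CA12 groups did not overlap, but the call was lost in 5 of the 6 fits that left out 1 library (adjusted p of 0.0682 to 0.171), all those that kept replicate 1 of shKDM5C. Without that replicate 19 of 41 members passed, 11 higher and 8 lower, against 11.5% and 10.9% of all genes, and CA12 stood at 1.497 ± 0.16. SLC2A3 (0.69 ± 0.05), EGLN3 (0.50 ± 0.16), PGAM1 (0.47 ± 0.03) and PFKFB3 (0.36 ± 0.04) were then higher, and LOX (-0.62 ± 0.09), DDIT4 (-0.37 ± 0.05), EPAS1 (-0.35 ± 0.04) and NDRG1 (-0.26 ± 0.05) lower. These fits rest on 2 shKDM5C libraries. The part of the high mitochondrial share of replicate 1 in the difference between the fits was not tested.

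Whether the 2 knockdowns added up was tested as an interaction, the change in Dsh minus the sum of both single changes on the log2 scale. In ACHN 38 of 42 members passed, 17 higher than the sum and 21 lower, against 26.8% and 28.8% of all genes. Largest above the sum were SLC2A3 (1.96 ± 0.11), STC1 (1.92 ± 0.14), DDIT4 (1.80 ± 0.08) and ANGPTL4 (1.72 ± 0.14), and largest below it were ADM (-2.06 ± 0.18), ALDOC (-1.73 ± 0.52) and PFKFB3 (-1.47 ± 0.06). Of the 17 glycolytic enzymes 12 lay below the sum and 3 above it, ENO2, PFKFB4 and PDK1 (0.75, 0.68 and 0.58). Scaling by library totals moved the median over all genes from 0.01 to 0.11 and made the member split 19 higher and 19 lower, so an interaction near that shift is not a difference from the other genes. In HK-2 17 of 42 passed, 6 higher and 11 lower, against 5.2% and 4.4% of all genes; SLC2A3 (2.00 ± 0.13), P4HA2 (1.44 ± 0.16), LOX (1.28 ± 0.16) and CA12 (1.17 ± 0.25) led upward, and EGLN3 (-1.25 ± 0.26), PGAM1 (-1.21 ± 0.11) and LDHA (-1.03 ± 0.21) downward. Leaving out HK-2 shKDM5C replicate 1 gave 29 of 43, 14 higher and 15 lower, against 15% and 13.7% of all genes. SLC2A3 (1.93 ± 0.07), CA9 (1.55 ± 0.46), P4HA2 (1.39 ± 0.11), LOX (1.36 ± 0.12) and CA12 (1.22 ± 0.22) then led upward. EGLN3 (-1.23 ± 0.25), PGAM1 (-1.22 ± 0.07) and LDHA (-0.76 ± 0.06) led downward. PDK1 was above the sum in ACHN and below it in HK-2 (-0.84 with all libraries, -0.58 ± 0.10 without that replicate).

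The effect of each knockdown was then compared between the lines, as the change in ACHN minus the change in HK-2; the libraries of the lines are separate. For shYY1 32 of 43 members differed, 5 higher in ACHN and 27 lower, against 16.6% and 16.5% of all genes. For Dsh 34 differed, 8 higher and 26 lower, against 23.4% and 22.7%; these include CA9 and STC1, each with fewer than 4 counts in every library of a control group, whose differences are not quantified here. For shKDM5C 12 differed, 5 higher and 7 lower, against 5.74% and 6.18%, EPAS1 (-1.06 ± 0.11), NDRG1 (-0.93 ± 0.16) and CA12 (-1.75 ± 0.31) being the lower members with the largest size. Without HK-2 shKDM5C replicate 1 that count was 25, 11 higher and 14 lower, against 18.6% and 15.4% of all genes. The largest lower members were then CA12 (-1.71 ± 0.29), VEGFA (-1.14 ± 0.08), NDRG1 (-1.05 ± 0.07), PFKFB4 (-1.01 ± 0.14) and EPAS1 (-0.98 ± 0.05). Among the lower members for shYY1 were STC2 (-2.08 ± 0.09), ENO2 (-1.59 ± 0.08), PDK1 (-1.52 ± 0.09) and BNIP3 (-1.29 ± 0.07), and the largest upward difference was SLC16A3 (1.09 ± 0.12), followed by SLC2A3 (1.07 ± 0.10).

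Of 22 members called in both lines with shYY1, 18 had opposite directions, 16 of them higher in HK-2 and lower in ACHN. Among all genes called in both lines, 1183 of 2719 (43.5%) were opposite. With all 4 HK-2 groups in the fit, 8 members were called higher in shYY1, so most of the 16 lost the HK-2 call there. The ACHN shYY1 falls of GAPDH (-0.06) and LDHA (-0.07) were small. Of 28 members called in both lines with Dsh, 13 were opposite, all of them higher in HK-2 and lower in ACHN, and 15 were the same; among all genes 1663 of 5467 (30.4%) were opposite. The 13 were EPAS1, VEGFA, ADM, STC2, BNIP3, NDRG1, SLC2A1, PFKFB4, PFKP, TPI1, ENO2, PDK1 and PLOD2. Among them, the HK-2 calls of EPAS1 and SLC2A1 were lost with all 4 HK-2 groups in the fit (adjusted p = 0.0634 and 0.511). Members that rose in both double knockdowns were CA12, ANGPTL4, BNIP3L, DDIT4, SLC2A3, SLC16A3, P4HA2 and LOX, and those that fell in both were EGLN3, GPI, PGK1, PGAM1, ENO1, LDHA and P4HA1. The gene by gene values are in the scatter of the 2 double knockdowns.

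**Figure D4:**
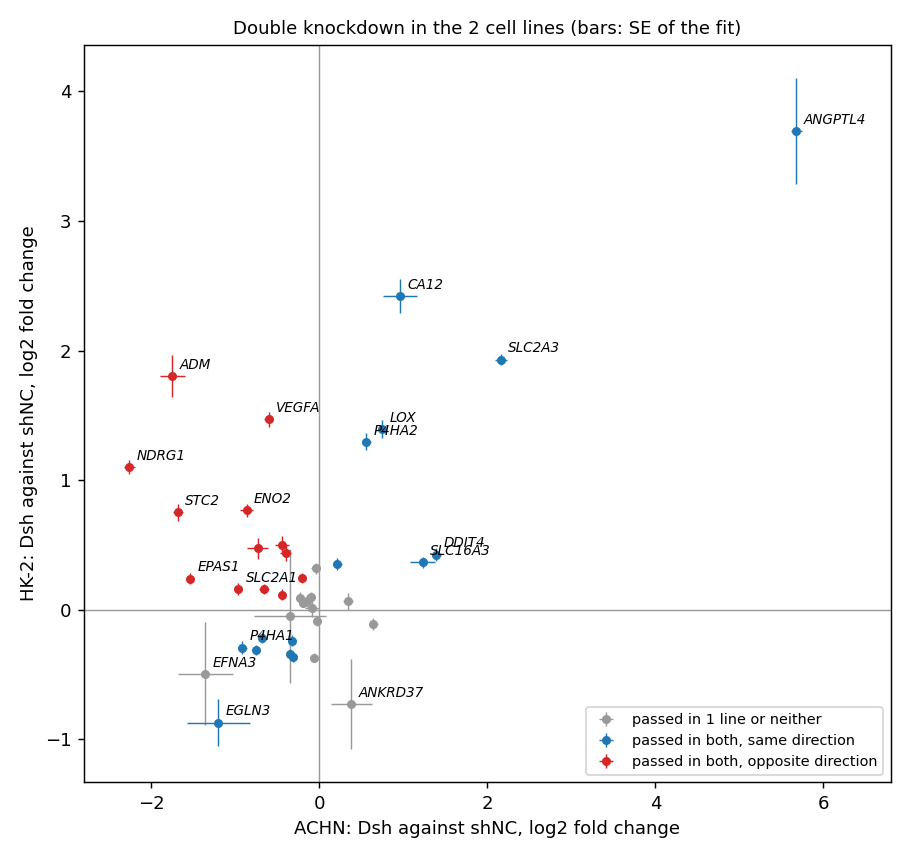
Log2 fold change in Dsh against shNC in ACHN (x axis) and HK-2 (y axis) for the 41 members tested in both lines, with SE bars; red marks members that passed the test in both lines in opposite directions, blue in the same direction. The 13 red points lie in the upper left, lower in ACHN and higher in HK-2, and ANGPTL4 lies farthest to the upper right.

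Other genes of these pathways, from lists of non-members, were counted in the same comparisons. The lists were chosen with earlier results of these data known, so their counts are no independent support for those of the members. Among 35 other hypoxia targets, 15 fell and 3 rose of 31 tested in ACHN shKDM5C (median -0.41), 16 fell and 6 rose of 32 in ACHN shYY1 (median -0.24), and 16 rose and 4 fell of 34 in HK-2 shYY1 (median 0.26). Over all genes tested, 27.7% fell and 28.9% rose in the first of these comparisons, 24.5% and 24.2% in the second, and in HK-2 shYY1 14.7% fell and 14.3% rose. In the double knockdowns they were mixed, with 13 higher and 15 lower of 32 in ACHN and 13 higher and 7 lower of 33 in HK-2, against 30.7% higher and 32% lower of all genes in ACHN Dsh and 25.5% and 24.3% in HK-2 Dsh. BHLHE41, a circadian transcriptional repressor, rose in both, in ACHN from 0.371 ± 0.182 to 4.69 ± 0.412 CPM (log2 fold change 3.64 ± 0.30, adjusted p = 3.9e-09) and in HK-2 from 8.001 ± 0.613 to 45.2 ± 1.01 CPM (log2 fold change 2.51 ± 0.10, adjusted p = 1.3e-19). IGFBP3, a secreted binding protein of insulin-like growth factors, fell in ACHN Dsh from 709.6 ± 30.8 to 84.8 ± 4.98 CPM (log2 fold change -3.06 ± 0.05, adjusted p = 1.6e-18), and CAV1, the caveolar coat protein, fell in HK-2 Dsh from 293 ± 10.3 to 91.3 ± 1.28 CPM (log2 fold change -1.67 ± 0.05, adjusted p = 7.06e-23). Of 14 other HIF pathway genes, 6 rose and 5 fell of 13 in ACHN Dsh, led by ARNT2, a HIF partner subunit, from 22.7 ± 0.882 to 7.3 ± 1.44 CPM (log2 fold change -1.63 ± 0.12, adjusted p = 7.87e-10), and 5 rose and 3 fell of 12 in HK-2 Dsh, led by CITED2, a competitor of HIF for its coactivators, from 359 ± 11.6 to 222 ± 22.1 CPM (log2 fold change -0.68 ± 0.05, adjusted p = 1.54e-12).

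The counts that follow are to be read against the shares of all genes in the same comparisons, 30.7% higher and 32% lower in ACHN Dsh and 25.5% higher and 24.3% lower in HK-2 Dsh. Of the other glycolysis and pyruvate genes, 7 rose and 13 fell of 25 in ACHN Dsh and 12 rose and 8 fell of 25 in HK-2 Dsh. PDP1, the phosphatase that opposes PDK1, is given as an example that rose in both. In ACHN it went from 22.98 ± 1.03 to 39.4 ± 0.304 CPM (log2 fold change 0.78 ± 0.07, adjusted p = 1.2e-08). In HK-2 it went from 103 ± 3.32 to 208 ± 7.49 CPM (log2 fold change 1.02 ± 0.05, adjusted p = 2.31e-17). Other genes of this list rose or fell by more in ACHN Dsh, and a shift in the use of pyruvate was not tested. Pentose phosphate genes fell in ACHN Dsh in 5 of 7 with 1 higher, and in HK-2 Dsh 3 fell and 1 rose. Glycogen genes were mixed and close to these shares in ACHN, with 5 higher and 6 lower of 17 in ACHN Dsh and 3 higher and 6 lower of 18 in HK-2 Dsh. PPP1R3B, a subunit that directs a phosphatase to glycogen, rose in both, in HK-2 from 62.5 ± 2.49 to 198 ± 10.99 CPM (log2 fold change 1.67 ± 0.05, adjusted p = 1.54e-21) and in ACHN from 55.03 ± 1.82 to 129 ± 3.58 CPM (log2 fold change 1.24 ± 0.05, adjusted p = 1.8e-13). Targets of ATF4, a stress factor that also acts on DDIT4 and VEGFA, moved with the double knockdown in HK-2, where 11 of 12 rose and 0 fell (median 1.19), among them DDIT3 from 13.96 ± 0.986 to 57.8 ± 2.24 CPM (log2 fold change 2.06 ± 0.08, adjusted p = 3.72e-19) and SESN2 from 44.5 ± 3.79 to 185 ± 7.76 CPM (log2 fold change 2.06 ± 0.06, adjusted p = 1e-22). In ACHN Dsh 2 of the 12 rose and 7 fell (median -0.28); SESN2 rose there too, from 38.98 ± 3.36 to 149 ± 7.1 CPM (log2 fold change 1.94 ± 0.06, adjusted p = 5.09e-15), and PHGDH, the entry enzyme of serine synthesis, fell from 132 ± 9.81 to 44.6 ± 1.03 CPM (log2 fold change -1.56 ± 0.06, adjusted p = 5.02e-14). The part of these ATF4 targets in the changes of the members was not tested.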

How the data were processed

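Total RNA of ACHN and HK-2 cells was sequenced as paired reads, 3 libraries in each of 8 groups. The deposited values are raw counts per gene, made by the authors with HISAT2 2.0.5 and featureCounts, for which the labels give version 1.5.0-p3 and the file headers 2.0.1; genes follow Ensembl release 84 on GRCh38 (hg38), and no strand setting was used. Depth was 15926561 to 24272298 counts per library, and counting error limits the rarest members. Symbols came from gene tables for 56558 of 60675 genes; genes without a symbol held 0.243% of the counts and stayed in the fits.

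The 43 members and the lists of other genes and cell markers were chosen with earlier results of these data known. Each comparison used edgeR 4.0.16 (R 4.3.3) on its own groups: filterByExpr, trimmed mean of M values, and the quasi-likelihood test, with p-values adjusted by Benjamini-Hochberg across every gene in the fit and called at 0.05; SE is the fold change divided by the root of F. The 2 × 2 interaction used all groups of a line, and effects were compared between lines in 1 model. Levels are CPM with factors from all 24 libraries, or FPKM over summed exon length. The exact permutation test of 3 against 3 cannot go below 0.1, so it was not used. Called members that changed by 0.5 or more on the log2 scale, with 1 CPM or more in the higher group, are named, the 12 largest where there are more, plus HIF1A, EPAS1, VHL, EGLN1, EGLN3, CA9, VEGFA, SLC2A1, HK1, HK2, PDK1 and LDHA in any case; other members are given by counts or as examples of their role, chosen after their values were seen. List genes named are examples from the called ones with the largest changes in Dsh, not in strict order of size. A gene that this rule names is left out and not reported here. Alternatives were DESeq2 1.42.0 (the tool the authors used), other scalings and filters, a replicate block, all 4 groups in a fit, and leaving out each library; scripts were tested on simulated data. RefSeq promoter windows were searched for the motif letters on both strands.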

Additional observations from a re-analysis of the deposited data

Results flagged for a closer look

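These results are listed because an effect differed between the lines or between single and double knockdown by a test of the difference itself. The effect differed between ACHN and HK-2 for 12 members with shKDM5C, 32 with shYY1 and 34 with Dsh, and the knockdowns departed from additivity for 38 members in ACHN and 17 in HK-2. Members called in opposite directions in the lines are given below as the ACHN change minus the HK-2 change on the log2 scale.

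With shYY1, 16 members were lower in ACHN and higher in HK-2. The hypoxia targets among them were STC2 at -2.08, BNIP3 at -1.29, NDRG1 at -1.13 and VEGFA at -0.79, and the transporter SLC2A1 was at -0.59. The glycolytic genes were ENO2 at -1.59, PDK1 at -1.52, PFKFB4 at -1.15, PGAM1 at -0.62, PFKP at -0.61, PKM at -0.53, PGK1 at -0.53, LDHA at -0.51 and GAPDH at -0.31. Of the collagen enzymes, LOX was at -0.83 and P4HA1 at -0.66. The other 2 ran the opposite way, SLC2A3 at 1.07 and P4HA2 at 0.40. Most of the 16 lost the HK-2 call with all 4 HK-2 groups in the fit.

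With Dsh, 13 members were lower in ACHN and higher in HK-2. The HK-2 calls of EPAS1 and SLC2A1 were lost with all 4 HK-2 groups in the fit. The HIF subunit EPAS1 was at -1.76. The targets ADM, NDRG1, STC2, VEGFA and BNIP3 were at -3.53, -3.35, -2.42, -2.05 and -0.82, and SLC2A1 was at -1.11. Among the glycolytic genes, ENO2 was at -1.61, PFKFB4 at -1.19, PDK1 at -0.93, TPI1 at -0.80 and PFKP at -0.55, and the lysyl hydroxylase PLOD2 was at -0.43.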

How the results depend on the processing

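The counts of called members stayed within 1.5 times of the reported count in 173 of 194 alternatives. The exceptions touch HK-2 shKDM5C replicate 1. For HK-2 shKDM5C, 7 members passed at an unadjusted p under 0.05, 4 with DESeq2 and 5 with all 4 groups in the fit, and leaving out single libraries gave 0 to 19. With all 4 groups HK-2 shYY1 had 9 members and HK-2 Dsh 18; leaving replicate 1 of shKDM5C out of that fit, an alternative chosen after seeing the data, gave 29 and 33. The HK-2 interaction ranged from 13 to 29 over the left-out libraries. The difference of the shKDM5C effect between lines had 20 members at an unadjusted p and 7 to 25 with a library left out. For 87 values of named members, 913 of 957 alternatives kept direction and call, 44 lost the call and 0 changed sign. Scaling by library totals turned the ACHN shKDM5C split from 17 higher and 13 lower to 13 and 17.

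Same-numbered libraries did not deviate together (correlations of -0.16 to 0.06 over 18 pairs, with 6 best matched by their own number), so the numbers were not read as pairs. With a replicate block, HK-2 shKDM5C had 0 called members and the shKDM5C difference between lines 5, and the other counts stayed within 1.5 times. Depth limits CA9 in ACHN and STC1 in HK-2, which fell below the count filter.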
